A study of Mus musculus with 6 samples.

Results

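Wnt signaling was examined through 10 genes in the RNA of quiescent muscle stem cells (qMuSCs) from mice with and without a deletion of the D2 gene aimed at these cells. They are the ligand Wnt4, the Frizzled receptors Fzd4 and Fzd7, the co-receptors Lrp5 and Lrp6, the planar polarity gene Vangl2, and Ctnnb1 (β-catenin), Axin2, Apc and Tcf7l2. They were taken by name and not by a threshold on their values, and all 10 were found among the 31053 genes of the count table.

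qMuSCs were sorted by GFP from resting hindlimb muscles of 3 control (WT) and 3 cD2KO mice aged 3 to 4 months, and RNA of each mouse was sequenced as a separate library. Every mouse carried the Pax7nGFP reporter and floxed alleles of Dio2, which encodes D2, the deiodinase that activates thyroid hormone, and tamoxifen was given to both groups. WT mice were Pax7nGFP/+;Pax7+/+;Dio2Fl/Fl. The cD2KO mice, Pax7nGFP/+;Pax7-CreERT2/+;Dio2Fl/Fl, had a tamoxifen-activated Cre that is made in Pax7-expressing cells, so the loss of Dio2 was aimed at these cells and not at others in the muscle. Effects of the Cre allele itself cannot be told apart from those of Dio2 loss in this design. The WT mice are named c124, c129 and c130, and the cD2KO mice fl125, fl126 and fl128.

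As background, a Wnt ligand bound by a Frizzled receptor and Lrp5 or Lrp6 halts the destruction complex, in which Apc and the Axins hold β-catenin for phosphorylation and decay. β-Catenin then enters the nucleus and acts with factors such as Tcf7l2 on target genes, of which Axin2 is the usual readout because it feeds back on the pathway. In the planar polarity branch the signal runs through Frizzled and Vangl2 without β-catenin. In muscle, Wnt4 is known as a niche ligand of quiescence, and Fzd7 and Vangl2 are known for the symmetric expansion of muscle stem cells in regeneration.

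Total counts were between 2184073 and 3897787 per library, where 3 counts correspond to 0.773 to 1.37 CPM (reads per 1e6 counted, with library sizes scaled by TMM factors). Dio2 itself did not separate the groups, with 21, 5 and 10 counts in WT and 15, 5 and 1 in cD2KO qMuSCs (two-sided exact permutation test of CPM, p = 0.7, where 0.1 is the smallest p for 3 mice against 3). Against its label, the library labelled fl125 exceeded the other 5 in Dio2 CPM, though at 6.83 CPM on 15 counts beside 5.41 CPM on 21 counts in c124. Counts this low differ little, and counts per gene do not show whether the floxed part of Dio2 was removed. The paper measured unrearranged Dio2 after tamoxifen and reports that most qMuSCs of cD2KO mice lost D2. Whether these 3 cD2KO mice were among those measured is not stated. The library labelled fl125 also lay apart on the first principal component, so that results are also given without it. Pax7 was present in all 6 libraries, at 213 to 434 CPM in WT and 316 to 691 CPM in cD2KO qMuSCs. The 10 muscle stem cell markers summed to 1004 to 1487 CPM in WT and 1763 to 1944 CPM in cD2KO. Des weighed heavily in this sum, at 325, 251 and 369 CPM in WT and 454, 530 and 842 CPM in cD2KO. Of the 10 markers, 7 had a positive log2 fold change and 3 a negative one, with Cxcr4 at -0.92. Markers of other cells were abundant too. Muscle fiber markers, 10 in number, summed to 2045 to 4500 CPM in WT and 3441 to 6563 CPM in cD2KO, and all 10 had a positive log2 fold change. The 10 mural markers summed to 5786 to 9949 CPM in WT and 11684 to 17075 CPM in cD2KO, and the 12 immune markers to 3302 to 6341 CPM in WT and 189 to 2359 CPM in cD2KO, with 1 of the 12 at 0 in every mouse. Myh11 and Acta2 weighed heavily in the mural sum, with means of 2192 and 2673 CPM in WT and 4371 and 6007 CPM in cD2KO. Of the 10 mural markers, 7 had a positive log2 fold change, Rgs5 only 0.0025, and 3 a negative one, Pdgfrb, Kcnj8 and Abcc9. Schwann cell markers, 8 in number, stood at 5325 to 8272 and 7488 to 8091 CPM, 10 fibroadipogenic markers at 3951 to 6389 and 2441 to 5203 CPM, and 12 endothelial markers at 306 to 433 and 252 to 316 CPM, WT first. The endothelial sum hides differences between its genes. Of the 11 tested, 9 had a negative log2 fold change and 2 a positive one, with a median of -1.24. Esam, the most abundant, had 0.32. The part of all these other cells in the Wnt values below was not tested, and fewer cells of a type cannot be told apart from less RNA per cell in bulk libraries.

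The comparison of cD2KO with WT asked whether transcripts of the pathway changed with the targeted deletion of D2 in quiescent cells. Of the 10 genes, only Fzd7 passed an unadjusted p under 0.05 in edgeR's quasi-likelihood test, and it was higher in cD2KO qMuSCs. Axin2 was too low for the test, and none of the other 8 passed it in either direction, nor by DESeq2 or voom. Over the whole transcriptome 621 of 11633 genes tested were called higher, or 5.34%, and 770 called lower, or 6.62%, so that a single call among 9 genes is near the background. Without the library labelled fl125, Fzd7 was called higher and Lrp6 lower, in a fit that called 933 of 11769 genes higher and 874 lower. The median log2 fold change of the 9 genes tested was 0.08, with 5 positive and 4 negative, against a median of -0.02 over all genes tested. In none of the 9 did the mice of a group all lie above those of the other, a separation that 18.1% of all genes tested showed. No adjusted p of the 9 was below 0.395, and a single gene of all those tested had an adjusted p under 0.05.

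**Figure D1:**
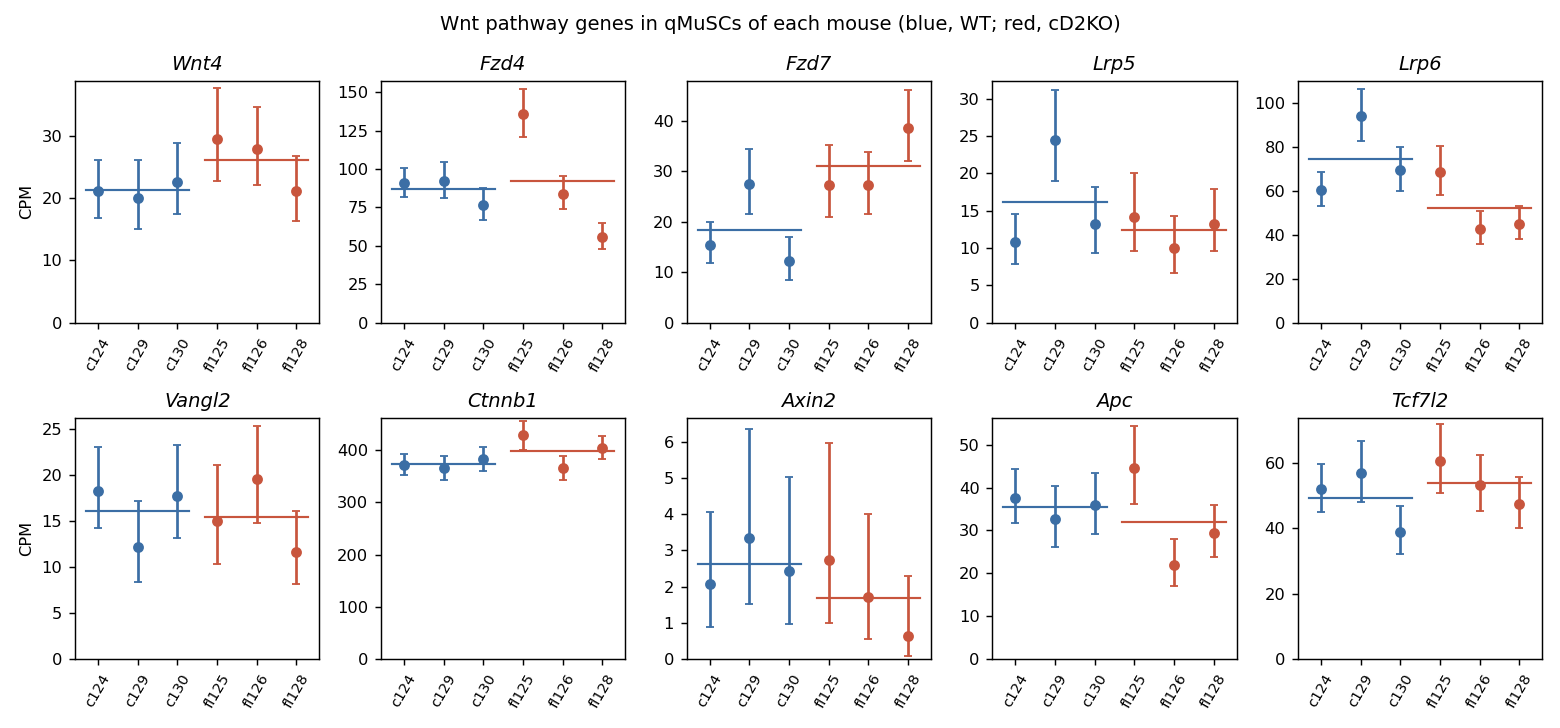
CPM of each of the 10 Wnt genes (vertical axis, from 0, with its own scale per gene) in the 3 WT mice (blue) and the 3 cD2KO mice (red). Points are libraries, bars are exact 95% Poisson intervals for counting error only, and horizontal lines are group means; the groups overlap in all 9 genes tested and in Axin2.

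Per kilobase of exon, Ctnnb1 was by far the most abundant of the 10, at 74.4 ± 4.81 CPM per kb (SD, n = 6 mice). Fzd4 followed at 13.3 ± 3.92 CPM per kb. Tcf7l2, Wnt4, Fzd7 and Lrp6 formed a middle group at 5.87, 5.66, 5.45 and 4.62 CPM per kb, in which the ranges of neighbours overlapped. Vangl2, Apc and Lrp5 were lower, at 2.26, 2.09 and 1.47 CPM per kb, again with overlapping ranges, and Axin2 came last at 0.39 ± 0.17 CPM per kb. The steps from Ctnnb1 to Fzd4, from Fzd4 to Tcf7l2, from Lrp6 to Vangl2 and from Lrp5 to Axin2 had no overlap between mice. If reads came from transcript ends alone, which the sources used here do not state, division by exon length would distort this order.

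Wnt4 (ENSMUSG00000036856, plus strand of chromosome 4, 137277489 to 137299726, mm10) stood at 21.1, 20.0 and 22.6 CPM in WT qMuSCs. In cD2KO it stood at 29.6, 27.9 and 21.2 CPM. The library labelled fl125 and fl126 were above every WT mouse, while fl128 was within the WT range. The log2 fold change was 0.30 (95% interval -0.31 to 0.91, adjusted p = 0.746 by edgeR), so a moderate change in either direction was not resolved. Wnt4 was not the only ligand present. Wnt6, another Wnt ligand, averaged 33.5 ± 5.41 CPM in the WT group and 29.5 ± 12.2 CPM in the cD2KO group (± SD of 3 mice, here and below), with a log2 fold change of -0.18. Per kilobase Wnt6 reached 14.4 CPM per kb, above Wnt4. Wls, which carries Wnt ligands to the cell surface, had a log2 fold change of 0.05, which turned to -0.02 when libraries were scaled to their totals alone. Of the 20 other genes of ligands and their secretion, 5 were tested and none passed. Wnt1, Wnt3a, Wnt7a, Wnt8a, Wnt8b and Wnt9b had no read in any mouse, a zero that allows up to 0.773 to 1.37 CPM per library (genes chosen for naming after their counts were seen).

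Fzd7 (ENSMUSG00000041075, plus strand of chromosome 1, 59482424 to 59486955, mm10) had 60, 74 and 35 counts in WT and 60, 79 and 122 in cD2KO libraries. These are 15.5, 27.5 and 12.2 CPM in WT and 27.3, 27.2 and 38.5 CPM in cD2KO. The cD2KO mice lay close to or above the highest WT mouse, c129, whose level fell among theirs, and well above c124 and c130. The group means were 18.4 ± 8.05 CPM in WT and 31.0 ± 6.51 CPM in cD2KO. Fzd7 rose by a log2 fold change of 0.76 (SE 0.34), which passed the unadjusted threshold in edgeR but not the adjustment over all genes (adjusted p = 0.395). A two-sided exact permutation test of its mean CPM gave p = 0.3.

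The Fzd7 call depended on which mice were in the fit. Without c129 the log2 fold change was 1.18, and without the library labelled fl125 it was 0.89, with the call kept in each case. Without c124, c130, fl126 or fl128 it was 0.65, 0.54, 0.85 or 0.57 and the call was lost. It was also lost when libraries were scaled to their totals (0.69) and with a minimum mean of 50 (0.73), while the direction was the same in all 14 alternatives that gave a value. Muscle fiber transcripts moved in a like order, with a summed level of 3099, 4500 and 2045 CPM in WT and 3441, 4166 and 6563 CPM in cD2KO, in which c129 was likewise the highest WT mouse and fl128 the highest of all. The mural sum was also highest in fl128, at 17075 CPM, but lowest in c129, at 5786 CPM. Its genes differed, with Myh11, Acta2, Cspg4 and Notch3 highest in fl128, Myh11 at 6127 and Acta2 at 7938 CPM. Rgs5, Kcnj8 and Abcc9 were instead lowest in fl128, at 844, 84.6 and 107 CPM. The part of fiber or mural RNA in the Fzd7 level was not tested.

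Fzd4 (ENSMUSG00000049791, plus strand of chromosome 7, 89404355 to 89413134, mm10) stood at 90.9, 92.4 and 76.6 CPM in WT and at 135.7, 83.9 and 55.9 CPM in cD2KO qMuSCs. The highest and the lowest of the 6 values were both in cD2KO mice, in the library labelled fl125 and in fl128. The group means, 86.6 ± 8.75 and 91.8 ± 40.5 CPM, were near each other. The log2 fold change of 0.08 (95% interval -0.52 to 0.67, adjusted p = 0.950 by edgeR) took the opposite sign by limma voom, at -0.03. It was -0.27 without the library labelled fl125.

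The balance between Frizzled receptors differed from mouse to mouse. Of the summed level of the 10 Frizzled genes per kilobase, Fzd4 made up 34.8%, 37.1% and 33.6% in WT mice and 45.2%, 31.8% and 17.4% in cD2KO mice. Fzd7 made up 8.76%, 16.3% and 7.93% in WT and 13.5%, 15.3% and 17.8% in cD2KO. Fzd2, the other abundant Frizzled, filled most of the remainder, with 41.7%, 26.2% and 34.5% in WT and 26.2%, 38.3% and 54.1% in cD2KO. In fl128 the ratio of Fzd7 to Fzd4 per kilobase was 1.02, while in the other 5 mice it lay between 0.236 and 0.480. Fzd2 did not pass the test (log2 fold change 0.48, adjusted p = 0.569 by edgeR) but, like Fzd7, was highest in fl128, at 94.7 CPM against 35.6 to 59.5 CPM elsewhere. Fzd2 was called higher without the library labelled fl125 (0.74) and with no minimum (0.52).

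The stretches of 250 bases before the RefSeq starts (GRCm38.p6) of Fzd7, Fzd4 and Axin2 are shown, as the called receptor, its more abundant relative and the feedback target, with capitals for the CCAAT box, a promoter element, on either strand (CCAAT or ATTGG). All are on the plus strand, 5′ to 3′.
Fzd7, chr1:59481897-59482146: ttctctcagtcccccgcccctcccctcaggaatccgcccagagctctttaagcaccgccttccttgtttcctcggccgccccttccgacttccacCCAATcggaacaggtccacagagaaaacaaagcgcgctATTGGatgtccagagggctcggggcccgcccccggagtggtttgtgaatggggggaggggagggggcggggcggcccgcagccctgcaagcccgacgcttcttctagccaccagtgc
Fzd4, chr7:89404116-89404365: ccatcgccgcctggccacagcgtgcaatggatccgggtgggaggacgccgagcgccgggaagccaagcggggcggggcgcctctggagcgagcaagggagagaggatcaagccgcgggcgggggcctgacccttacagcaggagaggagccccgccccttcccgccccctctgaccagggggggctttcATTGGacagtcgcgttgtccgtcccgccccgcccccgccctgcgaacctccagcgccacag
Axin2, chr11:108920099-108920348: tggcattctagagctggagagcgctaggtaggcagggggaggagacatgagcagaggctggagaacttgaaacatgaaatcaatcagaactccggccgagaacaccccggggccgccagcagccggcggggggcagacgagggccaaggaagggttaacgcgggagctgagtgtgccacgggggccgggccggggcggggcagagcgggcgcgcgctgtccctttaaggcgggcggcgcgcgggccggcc
The Fzd7 stretch held a CCAAT box 155 and 117 bases before the start and the Fzd4 stretch 1 at 61 bases, while the Axin2 stretch held none, and 33.8% of 32851 mouse promoters of this length held at least 1 (this motif was chosen after the sequences were seen). The TCF/LEF sequences searched (CTTTGAA or CTTTGAT, either strand) were in none of the 9 stretches found for 7 of the 10 genes. They were in 7.48% of all promoters. Other forms of this motif were not searched, so an absence of TCF/LEF sites is not shown. The half-site of thyroid hormone receptors (AGGTCA, either strand) was also in none of the 9, and in 14.0% of all promoters. These are letter matches in a short window and carry no measure of binding. The Fzd7, Fzd4 and Axin2 stretches had 65.2%, 72.8% and 69.2% GC, and the 9 ranged from 40.8% to 85.2%. Over all promoters the median was 52.4%, so the shares given for all promoters are not matched for base content. Apc, Lrp5 and Lrp6 had no entry.

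**Figure D2:**
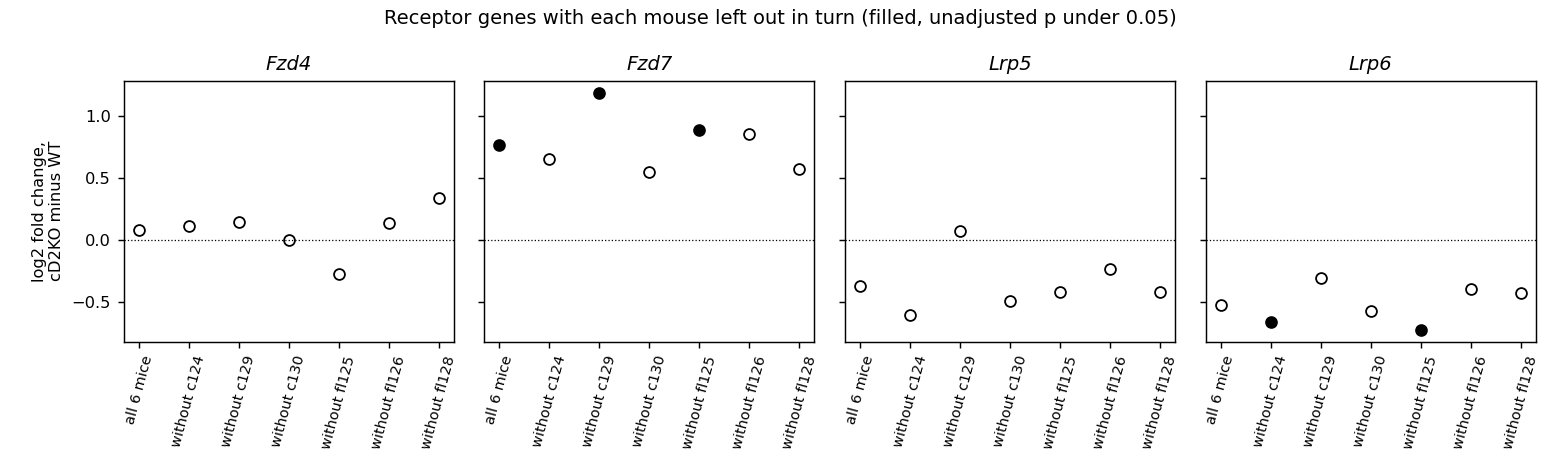
Log2 fold change (cD2KO minus WT, vertical axis) of the 4 receptor genes with all 6 mice and with each mouse left out in turn (horizontal axis); filled points have an unadjusted p under 0.05 by edgeR. Fzd7 stays above 0, between 0.54 and 1.18, and Lrp6 below 0, between -0.72 and -0.30, while Fzd4 and Lrp5 cross 0.

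Lrp6 (ENSMUSG00000030201, minus strand of chromosome 6, 134446476 to 134566965, mm10), the more abundant co-receptor, stood at 60.3, 93.9 and 69.3 CPM in WT and 68.3, 42.6 and 44.8 CPM in cD2KO qMuSCs. The values of fl126 and fl128 were below all WT values, and that of the library labelled fl125 was among them. The means were 74.5 ± 17.4 and 51.9 ± 14.2 CPM. With a log2 fold change of -0.52 (SE 0.25, 95% interval -1.06 to 0.01), Lrp6 did not pass the unadjusted threshold (adjusted p = 0.436 by edgeR). It passed without the library labelled fl125 (-0.72), without c124 (-0.66), when libraries were scaled to their totals (-0.59), with a minimum mean of 50 (-0.56) and with no minimum (-0.49), and it shrank to -0.30 without c129. Its direction was the same in all 14 alternatives.

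Lrp5 (ENSMUSG00000024913, minus strand of chromosome 19, 3584828 to 3686564, mm10) rested on 29 to 66 counts per library. It stood at 10.8, 24.5 and 13.2 CPM in WT and 14.1, 9.97 and 13.3 CPM in cD2KO. The WT mouse c129 was alone at the top, and the other 5 mice shared a range. The log2 fold change of -0.37 (95% interval -1.21 to 0.47, adjusted p = 0.774 by edgeR) became 0.07 without c129. In c129, the 7 activation genes, which include early response genes induced by dissociation, summed to 4722 CPM against 1469 to 2515 CPM in the other 5 libraries, and c129 was also the highest WT mouse for Fzd7 and Lrp6. The part of activation in these levels was not tested.

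Ryk, a receptor of the Wnt family outside the Frizzleds, was the highest of the other receptor genes, averaging 128.8 ± 7.93 CPM in WT and 123.6 ± 31.8 CPM in cD2KO, with a log2 fold change of -0.06. Of the 12 other receptors and co-receptors listed, 7 were tested and none passed. Of 9 genes of the R-spondin axis, which raises the amount of Frizzled at the surface, 5 were tested and none passed. Lgr4, an R-spondin receptor, had a log2 fold change of -0.27. Rspo3 had the larger difference, from 8.79 ± 4.82 to 4.80 ± 1.95 CPM, with a log2 fold change of -0.88 (adjusted p = 0.610 by edgeR) and overlapping groups. Secreted inhibitors were present in quantity. Sfrp5, a secreted Frizzled-related protein, had the highest level per kilobase of all the Wnt genes listed, 136 CPM per kb, above Ctnnb1. Its means were 255 ± 17.2 CPM in WT and 260 ± 41.1 CPM in cD2KO. Its log2 fold change of 0.03 became -0.04 with libraries scaled to their totals. Sfrp1 had a log2 fold change of -0.33 (adjusted p = 0.650 by edgeR), and none of the 6 inhibitors tested of 14 passed.

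**Figure D3:**
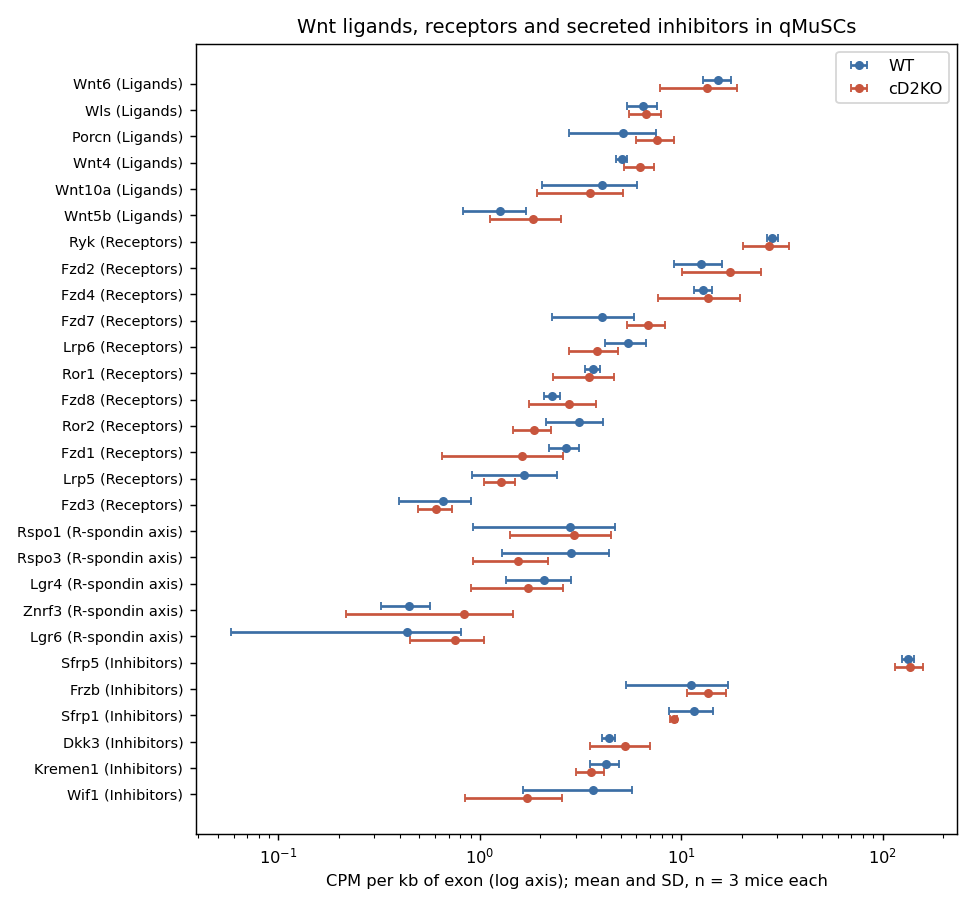
Levels of the tested Wnt ligand, receptor, R-spondin and inhibitor genes in CPM per kb of exon (horizontal log axis), WT in blue and cD2KO in red, points with bars as mean and SD of 3 mice each. Sfrp5 stands highest, at 136 CPM per kb over the 6 mice, and the bars of both groups overlap for Fzd4, Wnt6 and Ryk.

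In the destruction complex and nucleus, none of the 3 genes tested of the β-catenin branch passed the test. Ctnnb1 (ENSMUSG00000006932, plus strand of chromosome 9, 120929216 to 120960507, mm10) had 939 to 1444 counts per library and stood at 371.8, 365.7 and 382.5 CPM in WT and 427.6, 364.9 and 403.6 CPM in cD2KO qMuSCs. The library labelled fl125 and fl128 were above the WT mice and fl126 was below them. Its log2 fold change was 0.09 (95% interval -0.30 to 0.49, adjusted p = 0.898 by edgeR). The 6 mice varied by 6.46% (coefficient of variation), the least of the 10 genes. Exons of Ctnnb1 share 759 bases with those of Ulk4 on the opposite strand, which had 69 counts in all, and whether counting used strand is not given in the sources used here.

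Apc (ENSMUSG00000005871), the scaffold of the destruction complex, stood at 37.6, 32.7 and 35.9 CPM in WT and 44.6, 22.0 and 29.4 CPM in cD2KO. The WT values were close together and those of cD2KO lay on both sides of them. Between groups Apc differed by a log2 fold change of -0.15 (95% interval -0.77 to 0.47, adjusted p = 0.893 by edgeR). Tcf7l2 (ENSMUSG00000024985, plus strand of chromosome 19, 55741820 to 55933654, mm10), the DNA-binding partner of β-catenin, stood at 52.0, 56.8 and 39.0 CPM in WT and 60.6, 53.3 and 47.4 CPM in cD2KO. The groups overlapped widely, with a log2 fold change of 0.12 (95% interval -0.37 to 0.62, adjusted p = 0.895 by edgeR).

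Axin2 (ENSMUSG00000000142, plus strand of chromosome 11, 108920349 to 108950783, mm10), the feedback target, had 8, 9 and 7 counts in WT and 6, 5 and 2 in cD2KO libraries. These are 2.06, 3.34 and 2.44 CPM in WT and 2.73, 1.72 and 0.632 CPM in cD2KO. The count of fl128 was under the floor of 3, and the library labelled fl125 was within the WT range. The means were 2.61 ± 0.66 and 1.69 ± 1.05 CPM (p = 0.3 by the exact permutation test). Fitted with no minimum, its log2 fold change was -0.61 with an SE of 1.17 (adjusted p = 0.879 by edgeR), so a difference of several-fold was not detectable at this depth.

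Of the 4 other target genes listed, 2 were tested and none passed. Ccnd1 (cyclin D1), with means of 93.6 ± 14.8 CPM in WT and 86.1 ± 40.2 CPM in cD2KO, had a log2 fold change of -0.13 (adjusted p = 0.927 by edgeR). Its exons share 1100 bases with those of LTO1 on the opposite strand, which had 169 counts in all. Tnfrsf19 had a log2 fold change of 0.09. Myc, Lgr5, Sfrp2 and Wnt5a, chosen after their values were seen, were under the minimum as Axin2 was. Myc had 11, 21 and 15 counts in WT and 1, 4 and 9 in cD2KO libraries (two-sided exact permutation test of CPM, p = 0.2). Lgr5, an R-spondin receptor and target, had 6, 7 and 3 counts in WT and 0, 1 and 0 in cD2KO (exact p = 0.1). Sfrp2, a secreted inhibitor, had 10, 11 and 21 counts in WT and 1, 4 and 8 in cD2KO (exact p = 0.1). Wnt5a, a ligand of the planar polarity branch, went the other way, with 7, 1 and 3 counts in WT and 5, 6 and 9 in cD2KO (exact p = 0.1). Of the 38 pathway genes under the minimum, 26 had a count, and in 3 of them the groups did not overlap in CPM, with cD2KO below WT in 2, Lgr5 and Sfrp2, and above in 1, Wnt5a. For each, 0.1 is the smallest p possible here. Among all genes tested, which lie above the minimum, 18.1% showed such a separation. The share among all genes under the minimum was not computed. The immune marker sum was likewise lower in every cD2KO mouse, and its part in the Myc, Lgr5 and Sfrp2 levels was not tested.

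Vangl2 (ENSMUSG00000026556, minus strand of chromosome 1, 172000960 to 172028444, mm10), the core planar polarity protein that works with Fzd7, stood at 18.3, 12.3 and 17.8 CPM in WT and 15.03, 19.6 and 11.7 CPM in cD2KO. The groups covered the same range. Its log2 fold change was -0.07 (95% interval -0.81 to 0.68, adjusted p = 0.964 by edgeR). Among 9 further planar polarity genes, 7 were tested and 1, Prickle2, a partner of Vangl2, passed. Prickle2 stood at 22.4, 23.4 and 23.3 CPM in WT and 49.2, 36.5 and 26.8 CPM in cD2KO. All cD2KO mice were above the WT mice, the library labelled fl125 most of all. Prickle2 rose by a log2 fold change of 0.70 (SE 0.29, adjusted p = 0.365 by edgeR), which was 0.50 and no longer called without the library labelled fl125, and also lost its call without c124 (0.67), c130 (0.70) or fl126 (0.71). Daam1 and Daam2, formins of this branch, had log2 fold changes of -0.25 and 0.46 and did not pass.

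Of 98 further Wnt pathway genes listed, 86 had at least 1 count and 60 were tested. Apc2, Nkd1, Prickle2 and Bcl9l were called higher, which is 4 of 60 beside the 5.34% of all genes, and none was called lower by edgeR, DESeq2 or voom, beside 6.62%. The median log2 fold change was 0.04, with 31 positive and 29 negative. Without the library labelled fl125, 5 were called higher and 2 lower. That fit called 933 of 11769 genes higher and 874 lower. In 4 of the 60 all cD2KO mice were above all WT mice and in none were all below, beside 18.1% of all genes for either direction.

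Apc2, a relative of Apc in the destruction complex, had 11, 12 and 10 counts in WT and 23, 25 and 34 in cD2KO libraries. It stood at 2.83, 4.46 and 3.48 CPM in WT and 10.5, 8.60 and 10.7 CPM in cD2KO. Every cD2KO mouse was above every WT mouse. Apc2 rose by a log2 fold change of 1.47 (SE 0.52, adjusted p = 0.259 by edgeR), and it passed the unadjusted threshold in all 13 alternatives that gave a value, with 1.47 without the library labelled fl125.

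Nkd1, an intracellular inhibitor that binds Dishevelled and is itself induced by Wnt signals, stood at 49.7, 64.2 and 42.5 CPM in WT and 57.4, 86.0 and 123 CPM in cD2KO. The library labelled fl125 was within the WT range, and fl126 and fl128 were above it. Nkd1 rose by a log2 fold change of 0.78 (SE 0.27, adjusted p = 0.259 by edgeR). It was 1.05 without the library labelled fl125, and lost its call without c130 (0.65) and without fl128 (0.46). The mouse fl128 was also highest for Fzd7, Fzd2 and the summed muscle fiber and mural markers. Within the mural list, though, Rgs5, Kcnj8 and Abcc9 were lowest in fl128.

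Bcl9l, a β-catenin co-activator, stood at 116, 82.4 and 120 CPM in WT and 171, 155 and 124.1 CPM in cD2KO. All cD2KO mice were above the WT mice, though fl128 only slightly. Bcl9l rose by a log2 fold change of 0.50 (SE 0.21, adjusted p = 0.380 by edgeR), and the call was lost without c129 (0.36), without the library labelled fl125 (0.43), without fl126 (0.47) and with libraries scaled to their totals (0.44). Other nuclear factors did not pass: Ctnnbip1, which blocks β-catenin from Tcf factors, had a log2 fold change of -0.16, and Tle3, a co-repressor, of -0.27. The casein kinases Csnk1a1 and Csnk1d, which phosphorylate β-catenin and other pathway proteins, had -0.12 and 0.11. In all, 2 of 17 Dishevelled and destruction complex genes tested and 1 of 11 nuclear factors tested were called.

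**Figure D4:**
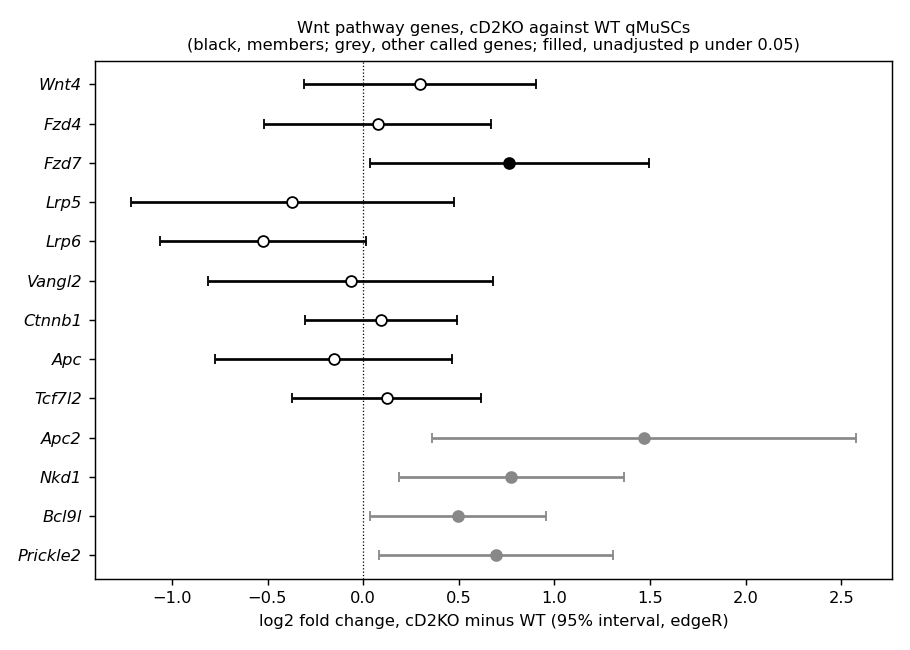
Log2 fold change of cD2KO against WT (horizontal axis) with 95% intervals from edgeR for the 9 Wnt genes tested (black) and the 4 other pathway genes called (grey); filled points have an unadjusted p under 0.05. Among the black points only the interval of Fzd7, 0.04 to 1.49, lies wholly above 0, and that of Lrp6 ends at 0.01; the grey genes were chosen by their call.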

How the data were processed

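RNA of sorted qMuSCs from 3 WT and 3 cD2KO mice was sequenced by a commercial digital RNA-seq service. The authors deposited raw counts of reads per gene, whole numbers without normalization, made with STAR 2.6.0a and HTSeq 0.9.1 on mm10 according to the submitters' processing notes. Annotation, use of strand and handling of PCR duplicates are not given in the sources used here, and counting intervals cover counting error only. Symbols and positions came from GENCODE M21 for mm10, which held 30934 of 31053 identifiers.

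From the counts, genes with a DESeq2 mean of normalized counts above 10 were kept (11633), following the study's minimum. Testing used edgeR 4.0.16 (R 4.3.3), with TMM factors and robust quasi-likelihood, with all 6 mice and no covariate. The call was an unadjusted p under 0.05, and Benjamini-Hochberg adjusted p over all genes tested are given beside it. Values outside the fit were compared by two-sided exact permutation tests. CPM used TMM-scaled totals, and CPM per kb the merged exon length of a gene. The least different pair of libraries differed beyond sampling noise (chi-square per degree of freedom 8.66), so all 6 were counted. The labels do not say more of how animals were matched. The edgeR p-values weigh a group difference against the variation between these mice, estimated with information shared over genes. The test was checked on simulated data. Promoter sequences came from RefSeq (GRCm38.p6) by symbol.

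The members and lists were chosen with earlier results of these data known. Named genes are the 10 members, listed pathway genes with an unadjusted p under 0.05, and the 2 other tested genes of each role with the highest mean CPM. Genes outside this rule are marked in the text. As alternatives, DESeq2 1.42.0 (Wald test), voom (limma 3.58.1), DESeq2 size factors or library totals, filterByExpr of edgeR, a mean above 50 or no minimum, non-robust estimation, an adjusted p under 0.05, and leaving out each mouse were tried.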

Additional observations from a re-analysis of the deposited data

How the results depend on the processing

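The number of the 10 Wnt genes called higher was 0 with libraries scaled to their totals, with a minimum mean of 50 and at an adjusted p under 0.05, and 0 to 1 with each mouse left out. The number called lower was 1, Lrp6, with library totals, with a minimum mean of 50 and with no minimum, and 0 to 1 with each mouse left out. For the other pathway genes, none was higher at an adjusted p under 0.05 and 3 to 5 were with each mouse left out, and 0 to 2 were lower with each mouse left out. The cause was not tested. Library totals called 439 genes higher and 953 lower over all genes, beside 621 and 770 with TMM, and moved the median of all genes to -0.09. Over all alternatives 402 to 939 genes were called higher and 399 to 1040 lower, apart from the adjusted threshold, with 1 and 0. Without c129 they were 499 and 399.

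Signs changed for uncalled genes only. Fzd4 was -0.031 by voom, Wls -0.022 and Sfrp5 -0.043 with library totals, and Sfrp5 -0.0082 with a minimum mean of 50. With each mouse left out, log2 fold changes ranged from -0.27 to 0.34 for Fzd4, -0.60 to 0.072 for Lrp5, -0.28 to 0.11 for Vangl2, -0.42 to 0.058 for Apc, -0.020 to 0.25 for Tcf7l2, -0.11 to 0.19 for Wls, -0.58 to 0.0096 for Wnt6, -0.25 to 0.044 for Ryk, -0.64 to 0.025 for Lgr4, -0.094 to 0.17 for Sfrp5, -0.057 to 0.23 for Csnk1d, -0.45 to 0.033 for Ctnnbip1, -0.32 to 0.22 for Ccnd1 and -0.14 to 0.44 for Tnfrsf19. Of the single-gene values under the alternatives, 349 kept their direction and side of the threshold, 27 changed sign, 16 lost a call and 8 gained one. No paired analysis was possible because the labels give mouse identifiers and no replicate number that the groups share.

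At 2184073 to 3897787 counts per library, genes near 1 CPM rest on a few counts per library, and 3 mice against 3 cannot give an exact p below 0.1.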
